A study of Rattus norvegicus with 6 samples.

Results

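Heme oxygenase-1, encoded by Hmox1, and the genes that handle the iron and bile pigment its reaction releases were compared between rat endometrial epithelial organoids (rEEOs) and rat bone marrow mesenchymal stem cells (rBMSCs). The genes were chosen by symbol from 10 names for heme breakdown and for the uptake, storage and export of iron. The rule itself reads no measured value, but the names were drawn up with earlier results of these data known. Of these, 7 were among the 13728 genes held, namely Hmox1, Blvra, Blvrb, Ftl1, Slc40a1, Tfrc and Slc11a2, and Hmox2, Fth1 and Steap3 were not analysed here. The low-count filter, at least 10 counts in at least 3 libraries, left 6 of the 7 among 10607 genes tested and removed Slc40a1. Each of the 6 had over 10 counts in every library of both cell types, so none entered the test through 1 cell type alone.

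The rEEOs were grown from uterine glandular fragments of 5-week-old female Sprague-Dawley (SD) rats, as 3D cultures in Matrigel in an expansion medium that held insulin-transferrin-selenium and growth factors. The rBMSCs were purchased rat cells labeled with a red fluorescent protein and grown with fetal bovine serum. The labels name no treatment of either, and the media differ, so that cell type and culture medium cannot be told apart. Poly(A) RNA of 3 samples of each was sequenced in bulk. Nothing in the sources says that the 3 samples came from separate animals or cultures, so p-values measure only the spread between these samples, which may be technical.

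Heme oxygenase opens the heme ring and releases biliverdin, carbon monoxide and ferrous iron. Biliverdin reductases turn biliverdin into bilirubin, ferritin stores the iron in a soluble cage, and ferroportin carries it out of the cell. Cells take iron up through the transferrin receptor, and iron regulatory proteins stabilise the receptor's mRNA and hold back ferritin translation when iron is scarce. In the endometrium, heme and iron are plentiful wherever blood is shed, and Hmox1 is a textbook example of a gene induced by heme, oxidants and inflammatory signals.

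The libraries held 10457958 to 15421501 counts, and the labels named no sequencing batch. The 5 epithelial markers summed to 3684 to 4278 TPM (RSEM's level per transcript length) in rEEOs against 2.43 to 2.85 TPM in rBMSCs. All 5 were called higher in rEEOs, as were 16.3% of all genes tested. Of 7 mesenchymal markers, 6 were called lower in rEEOs (13.3% of all genes tested were), where none passed 0.71 TPM. The other, Nt5e, was low in both, at 0.69 to 1.23 TPM in rBMSCs and 0.03 to 0.44 TPM in rEEOs. It did not pass the test (edgeR adjusted p = 0.0506). Epcam, Krt18, Krt19 and Cdh1 passed the count filter only through rEEOs, and Col1a1, Col1a2, Col3a1, Pdgfrb and Thy1 only through rBMSCs. The direction of those calls was thus largely fixed by the filter. Read by their levels, and apart from Nt5e, each cell type carried the markers of its label. Replicate 1 of the rEEOs stood apart from the other two. Relative to it, the 974 genes with the shortest transcripts were higher by a median of 0.59 in replicate 2 and 0.60 in replicate 3 on a log2 scale, and the 974 with the longest were lower, with medians of -0.79 and -0.68. These differences are in CPM, counts per library total scaled by the trimmed mean of M-values (TMM), which does not correct for length. Gene values below are therefore given for each library, and also with this length trend removed where the rEEOs libraries are set side by side.

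Hmox1 and Tfrc were the genes called higher in rEEOs, at an adjusted p below 0.05 in edgeR's quasi-likelihood test and a log2 fold change above 2. That is 2 of the 6 genes tested, where 16.3% of all genes tested were called higher. None of the 6 was called lower, against 13.3% of all genes. By the adjusted p alone, Hmox1, Blvrb, Tfrc and Slc11a2 rose, 4 of 6 against 33.3% of all genes, and Blvra fell, 1 of 6 against 30.2%. The groups did not overlap for the same 5 genes, with rEEOs above rBMSCs for 4 (36.9% of all genes) and below for 1 (35.9%). With so few genes these shares describe the genes named and do not set them apart from the rest.

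**Figure D1:**
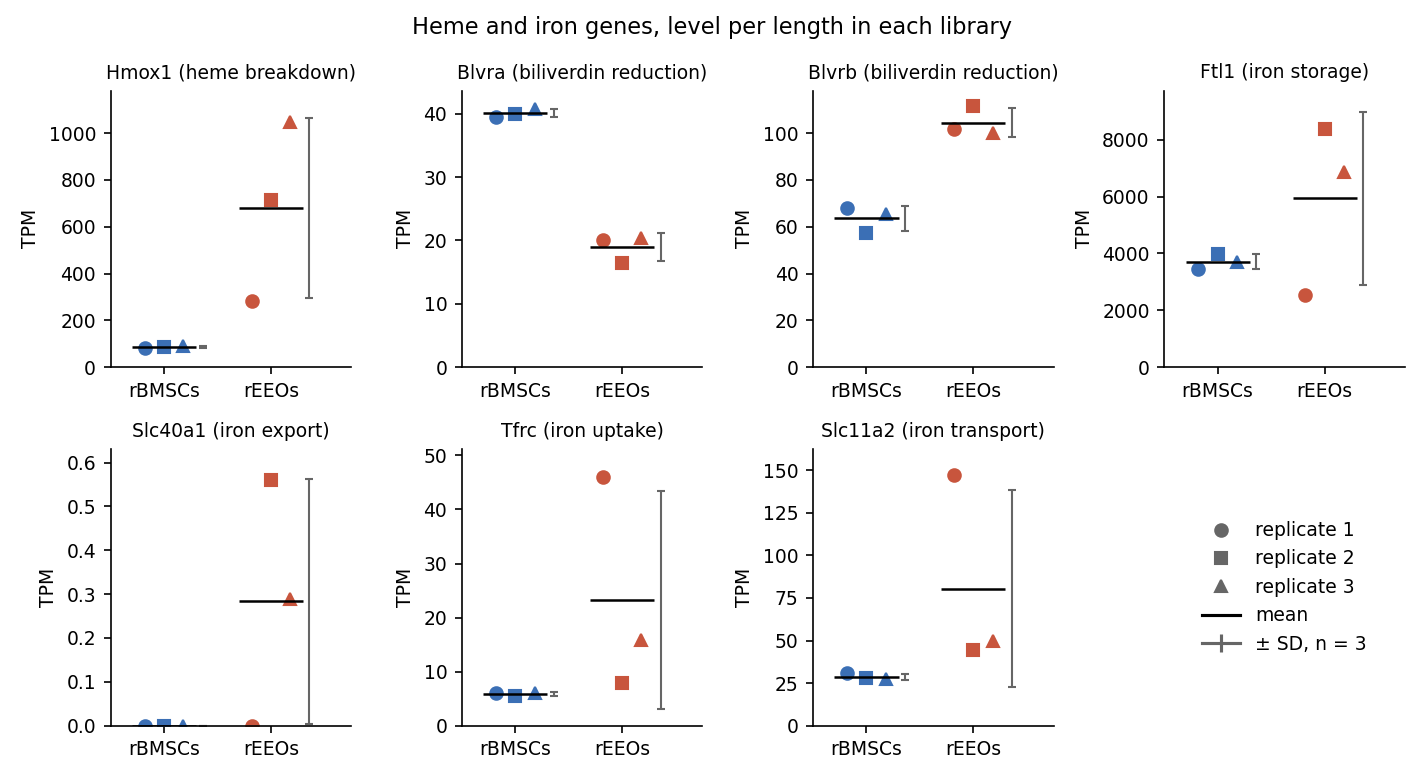
TPM of each of the 7 genes on the y axis in the 3 rBMSCs (blue) and 3 rEEOs (red) libraries, with the symbol shape giving the replicate, a black line the mean and a grey bar the SD. The rBMSCs points lie close together in every panel, and among rEEOs replicate 1 is the lowest for Hmox1 and Ftl1 and the highest for Tfrc and Slc11a2.

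Hmox1, the inducible enzyme of heme breakdown (gene 24451), was at 80.46, 86.91 and 91.60 TPM in rBMSCs replicates 1 to 3, from 1067, 1229 and 1167 counts. In rEEOs it was at 281.52, 713.14 and 1046.62 TPM, from 4449, 11308 and 16544 counts. Every rEEOs library was thus above every rBMSCs library, and the rEEOs libraries were also far apart from one another. The means were 86.3 ± 5.59 TPM in rBMSCs and 680 ± 384 TPM in rEEOs (SD, n = 3 each). The log2 fold change was 3.34 (SE 0.58), a 10.1-fold higher level, with an adjusted p of 0.00285 in edgeR's quasi-likelihood test. Leaving out each library in turn gave log2 fold changes of 2.86 to 3.79, and with the length trend removed it was 3.03 (adjusted p = 0.00268).

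The reductases that act on biliverdin moved in opposite directions. Blvra, biliverdin reductase A (gene 116599), was at 39.50, 39.94 and 40.73 TPM in rBMSCs and 19.99, 16.39 and 20.43 TPM in rEEOs. All 3 rEEOs libraries lay below all 3 rBMSCs libraries, and the spread within each cell type was small. Blvra fell by 0.81 on the log2 scale (SE 0.17, 1.76-fold, edgeR adjusted p = 0.00678). Without TMM scaling the decrease was smaller, at -0.44, and no longer past the threshold (edgeR adjusted p = 0.0542). Leaving out that scaling also moved the median log2 fold change of all genes tested from 0.08 to 0.46.

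Blvrb, biliverdin reductase B (gene 292737), which also reduces flavins, was at 67.97, 57.47 and 65.29 TPM in rBMSCs and 101.75, 111.74 and 100.05 TPM in rEEOs. It is the gene of the 7 whose rEEOs libraries lay closest together in TPM, with a coefficient of variation of 6.04% against 56.4% for Hmox1. Blvrb rose by a log2 fold change of 1.02 (SE 0.20, 2.03-fold, edgeR adjusted p = 0.00472). With the length trend removed the value was 0.54 (adjusted p = 0.0101).

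As a level per length, Blvrb stood at 1.72, 1.44 and 1.60 times Blvra in rBMSCs. In rEEOs the ratio was 5.09, 6.82 and 4.90. The means were 1.59 ± 0.142 and 5.60 ± 1.06 (SD, n = 3 each), without overlap. A two-sided exact permutation test of the ratio gave p = 0.1, which is the smallest that 3 against 3 samples allow, so the design cannot take this difference below 0.05.

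Ftl1, the light chain of ferritin (gene 29292), was the most abundant of the 7 in every library. It was at 3466, 3985 and 3693 TPM in rBMSCs and at 2545, 8375 and 6879 TPM in rEEOs. Replicate 1 of the rEEOs lay below all rBMSCs libraries and replicates 2 and 3 above them, so the groups overlapped. The log2 fold change of 1.06 (SE 0.54) did not pass the test (edgeR adjusted p = 0.126). Without rEEOs replicate 1 the log2 fold change was 1.50 with an adjusted p of 0.000171, so that library decided on which side of the threshold Ftl1 lay. Without rEEOs replicate 2 or 3 it was 0.66 or 0.93 (adjusted p = 0.325 and 0.262). Ftl1 counts were not whole numbers, since reads were shared out among similar sequences, and rats carry many near-identical ferritin copies, so its level is uncertain.

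Slc40a1 encodes ferroportin, the iron exporter (gene 170840). It had 0 counts in all 3 rBMSCs libraries, and 0, 16.89 and 8.90 estimated counts in rEEOs, or 0, 0.56 and 0.29 TPM. The rEEOs mean of 0.742 CPM was 3.30 times the 0.225 CPM that 3 counts per rBMSCs library stand for. The groups overlapped at 0, so this ratio is no lower bound on the difference between the cell types. Without rEEOs replicate 2 the ratio to that limit was 1.65 and without replicate 1 it was 4.95. That limit covers counting error only, and since 1 rEEOs library was also at 0 the gene was detected in 2 of 3 rEEOs libraries and not detectable at this depth in the rest.

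Tfrc, the transferrin receptor that takes up iron-loaded transferrin (gene 64678), was at 5.96, 5.44 and 6.12 TPM in rBMSCs. In rEEOs it was at 46.04, 7.91 and 15.89 TPM, from 2656, 453 and 909 counts. All rEEOs libraries were above all rBMSCs libraries, replicate 2 by little. The log2 fold change was 2.10 (SE 0.49, 4.29-fold) with an edgeR adjusted p of 0.00966. Without rEEOs replicate 1 it was 1.45 (adjusted p = 0.00269), under the size needed for a call. Tested as log2(TPM + 1) in limma, it was 1.49 with an adjusted p of 0.0649.

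Slc11a2, the proton-coupled metal transporter that moves ferrous iron across the membrane of the gut cell and of the endosome (gene 25715), was at 30.87, 27.75 and 27.49 TPM in rBMSCs. In rEEOs it was at 147.44, 44.53 and 49.43 TPM. Again the groups did not overlap and replicate 1 was far above the other two. Slc11a2 rose by a log2 fold change of 1.82 (SE 0.36, 3.52-fold, edgeR adjusted p = 0.00501), which was 1.32 without rEEOs replicate 1 (adjusted p = 7.16e-05) and 2.08 without replicate 2. On log2(TPM + 1) in limma the value was 1.24 with an adjusted p of 0.0564.

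In rBMSCs the SD of log2 CPM over the 3 libraries was 0.05 to 0.15 for the 6 genes tested, around the median of 0.088 for all genes tested. In rEEOs the SD was 1.24 for Hmox1, 1.22 for Ftl1, 1.00 for Tfrc and 0.71 for Slc11a2, all above the median of 0.340. Blvra and Blvrb, at 0.23 and 0.35, lay near that median. Hmox1, Ftl1, Tfrc and Slc11a2 were thus even among rBMSCs and uneven among rEEOs.

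Whether the genes follow Hmox1 across the rEEOs libraries was described without a test, since each library is a single sample. Hmox1 was 3.68 times higher in replicate 2 and 5.09 times higher in replicate 3 than in replicate 1 on TMM-scaled CPM, and 2.53 and 3.72 times higher in TPM. TPM lowered these ratios for most genes, as the median log2 difference of all genes from replicate 1 was -0.55 in replicate 2 and -0.46 in replicate 3 in TPM and near 0 in CPM. The order of Hmox1, lowest in replicate 1 and highest in replicate 3, was shared by Blvra alone on CPM and by none of the other genes tested in TPM. Of all genes tested, 18% had that order on CPM and 11.2% in TPM.

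Ftl1 came closest to the size of the Hmox1 differences. It was 4.84 times higher in replicate 2 and 3.74 times higher in replicate 3 than in replicate 1 on CPM, and 3.29 and 2.70 times higher in TPM. Its highest library was replicate 2, where that of Hmox1 was replicate 3. Hmox1 and Ftl1 were the 2 of the 6 genes that were lower in replicate 1 than in both other libraries by at least 1 on the log2 scale, where 10.2% of all genes were so on CPM and 6.18% in TPM. Slc40a1, with its few counts, also had 0 in replicate 1.

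Tfrc and Slc11a2 went the other way. Tfrc was 4.05 times higher in replicate 1 than in replicate 2 and 2.13 times higher than in replicate 3 on CPM, and Slc11a2 was 2.50 and 2.15 times higher. These were the 2 of the 6 genes higher in replicate 1 by at least 1 on the log2 scale, against 12.6% of all genes on CPM and 24.5% in TPM. The mRNAs of ferritin light chain and the transferrin receptor were thus at opposite ends in replicate 1. The ratio of Ftl1 to Tfrc, chosen after the values were seen and given without a test, was 582, 733 and 603 in rBMSCs and 55.3, 1059 and 433 in rEEOs, in TPM.

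**Figure D2:**
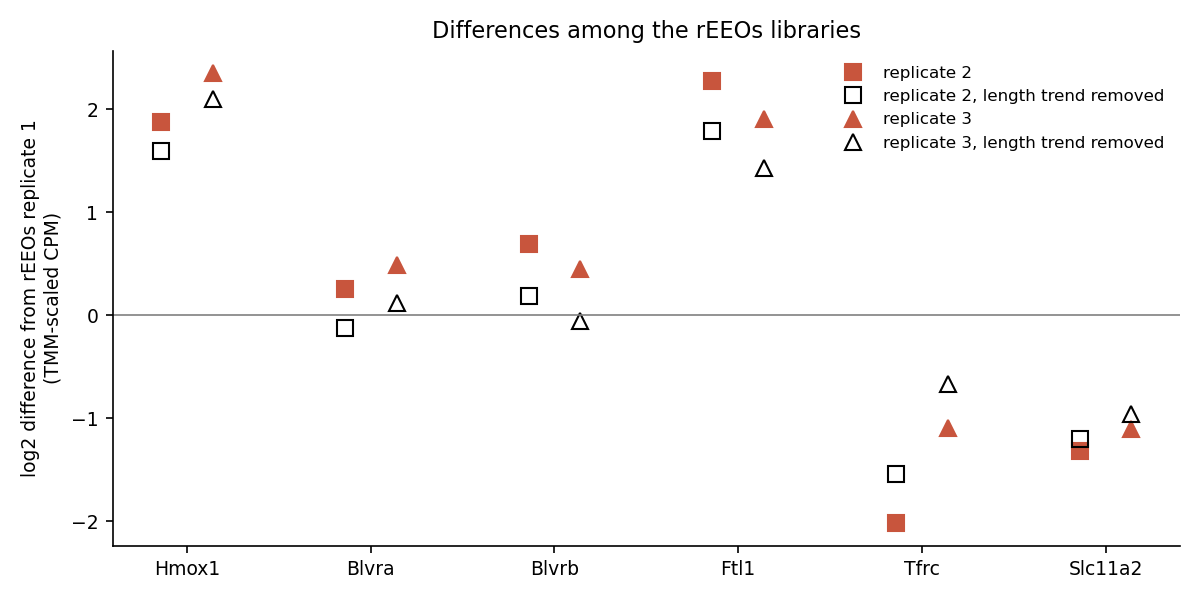
Log2 difference of TMM-scaled CPM from rEEOs replicate 1 on the y axis for each gene tested on the x axis, in replicate 2 (squares) and replicate 3 (triangles), as measured (filled) and with the length trend removed (open). Hmox1 and Ftl1 lie above 1 in both forms, Tfrc and Slc11a2 lie below 0, and Blvra and Blvrb move to near 0 once the trend is removed.

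Part of these differences lay along transcript length, and its share was measured by removing the trend from each library. Relative to the median gene, Blvrb, Ftl1, Blvra and Hmox1 have short transcripts (0.259, 0.272, 0.416 and 0.563), and Slc11a2 and Tfrc have long ones (1.23 and 2.04). With the trend removed, Hmox1 was still higher than in replicate 1 by 1.59 and 2.09 on the log2 scale in replicates 2 and 3, against 1.88 and 2.35 before. Ftl1 was higher by 1.79 and 1.42, against 2.28 and 1.90. Tfrc differed by -1.54 and -0.67, against -2.02 and -1.09, and Slc11a2 by -1.20 and -0.96, against -1.32 and -1.10. Hmox1 and Ftl1 thus still differed from replicate 1 by at least 1 in both libraries, and Tfrc and Slc11a2 no longer did. Blvra (-0.12 and 0.12) and Blvrb (0.19 and -0.05) were then near 0, and Blvra no longer had the order of Hmox1.

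**Figure D3:**
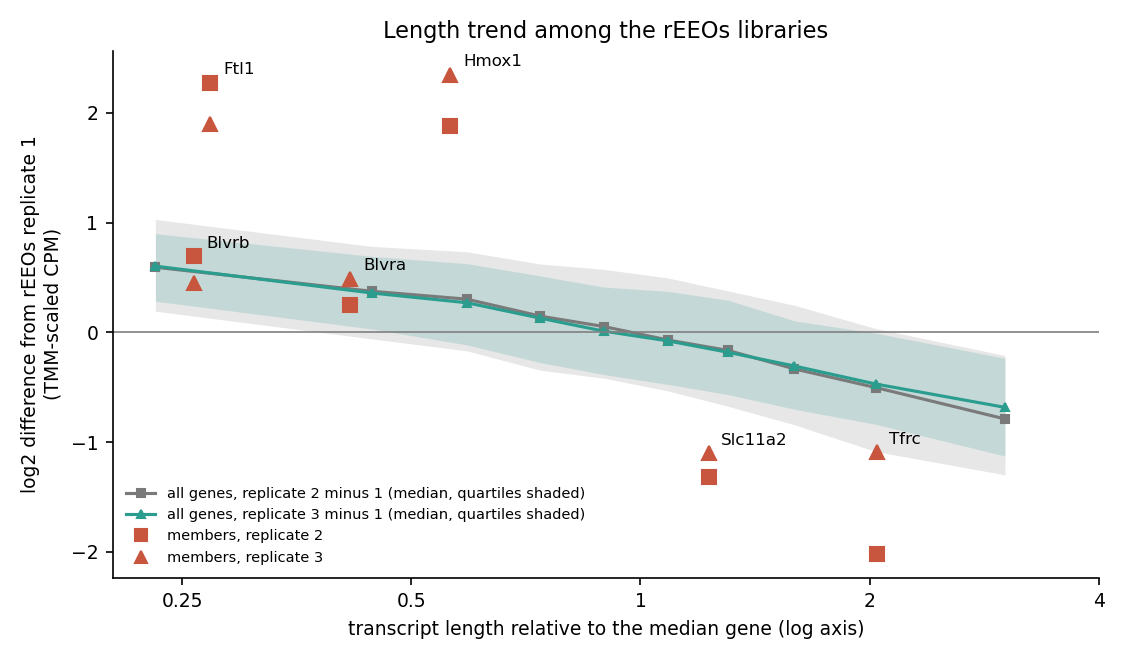
Log2 difference of TMM-scaled CPM from rEEOs replicate 1 (y axis) against transcript length relative to the median gene (x axis, log scale). Lines give the median of all genes in 10 classes of length with the quartiles shaded, for replicate 2 (grey) and replicate 3 (green), and red symbols give the 6 genes tested. The medians fall from 0.59 and 0.60 to -0.79 and -0.68, with Hmox1 and Ftl1 well above them and Tfrc and Slc11a2 below.

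Macrophages are rich in Hmox1, ferritin and ferroportin, so their markers were read beside these genes. Of 13 macrophage markers, 8 were held, and 2 passed the count filter, both called higher in rEEOs (16.3% of all genes tested were). Of these, Cd68 passed the filter only through rEEOs, so the direction of its call was largely fixed. Cd68, a lysosomal glycoprotein, was at 0.21, 0.49 and 0.11 TPM in rBMSCs and at 31.78, 132.55 and 105.24 TPM in rEEOs, where replicate 1 was the lowest, as for Ftl1. Cd14, a co-receptor for bacterial lipopolysaccharide, was at 5.15, 6.08 and 4.72 TPM in rBMSCs. In rEEOs it was at 67.27, 19.40 and 15.94 TPM and had its highest value in replicate 1. The other 6 markers did not pass 18 counts in any library and summed to between 1.01 and 1.64 TPM in rEEOs, where Csf1r was at most at 0.05 TPM and Laptm5 was at 0. The whole list summed to 5.11 to 7.15 TPM in rBMSCs and 100.06 to 153.59 TPM in rEEOs, nearly all from Cd68 and Cd14. Of 13 erythroid markers, 5 were held and none passed 16 counts. In bulk RNA, fewer cells of a type and less RNA per cell cannot be told apart.

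The genes whose pattern over the 6 libraries was most like that of Hmox1 were found by the root mean square difference of log2(CPM + 1), each gene centred on its own mean, among 3712 genes with at least 50 CPM on average in rEEOs. The 8 nearest were Zfp36 (difference 0.168), Rsrp1 (0.216), Junb (0.224), Vegfa (0.254), Rgl3 (0.315), Tnfaip3 (0.317), Id1 (0.318) and Socs3 (0.319). Zfp36, an mRNA decay factor, was at 86.07, 166.32 and 349.34 TPM in the rEEOs libraries against 23.55 to 23.90 TPM in rBMSCs. Junb, a subunit of the AP-1 transcription factor, was at 234.41, 379.45 and 563.78 TPM, and Vegfa, the vascular growth factor, at 108.00, 332.50 and 348.57 TPM. Both had the lowest rEEOs value in replicate 1, as Hmox1 had, which largely follows from how they were picked. Tnfaip3, a ubiquitin-editing inhibitor of NF-κB signalling, was at 9.77, 32.82 and 34.25 TPM. Of the 8, 7 were also among the 8 nearest on log2(TPM + 1), and Socs3, a feedback inhibitor of cytokine signalling, ranked 17.

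Ranks among the 3712 were then read for the heme and iron genes. Alas1 ranked 43 with a difference of 0.520, Steap1 127 (0.719), Slc25a28 182 (0.795), Slc25a37 219 (0.852) and Alad 245 (0.877). The measure spans both cell types, so a near rank does not mean that a gene followed Hmox1 among rEEOs. Steap1 was flat across rEEOs replicates 1 to 3 (86.6, 86.2 and 86.9 CPM). Slc25a37 was highest in replicate 1 (118.6, 100.4 and 90.1 CPM). Alas1, Slc25a28 and Alad were lowest in replicate 1 on CPM. Of the genes chosen by symbol, Ftl1 ranked 585 with 1.15, Blvrb 629, Slc11a2 925 and Tfrc 1083. Blvra and Slc40a1 did not reach 50 CPM in rEEOs and were not ranked. From the oxidative stress list, Gclm ranked 59 and Maff 95.

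**Figure D4:**
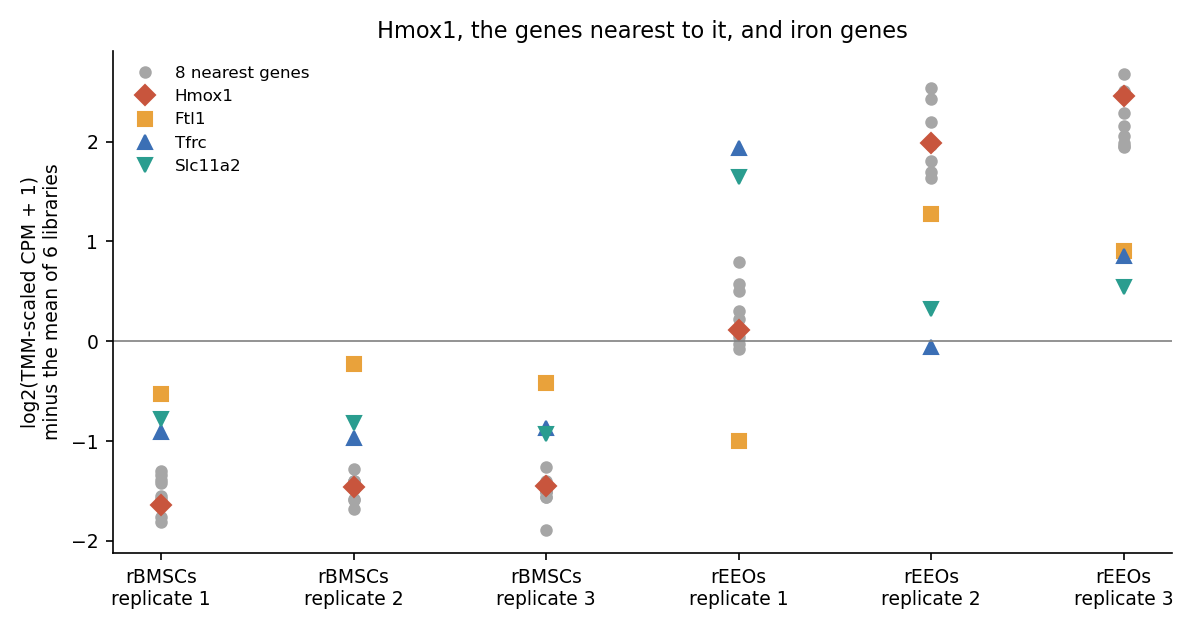
Log2(TMM-scaled CPM + 1) minus the gene's mean over 6 libraries (y axis) in each library (x axis), for Hmox1, the 8 genes nearest to it (grey), Ftl1, Tfrc and Slc11a2. The grey points track Hmox1 within each library because the genes were picked for that. Ftl1 falls below its rBMSCs level in rEEOs replicate 1, and Tfrc and Slc11a2 peak there.

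The rest of the pathway was read from 6 lists of 84 genes, of which 68 were held and 63 tested. Of the 63, 15 were called higher and 4 lower, and 26 and 14 were higher and lower by the adjusted p alone. Among all genes tested, 16.3% were called higher and 13.3% lower, and 33.3% and 30.2% were higher and lower by the adjusted p alone. The lists are small beside these shares, and their counts are given as a description. Of the genes called, Abcg2, Hp, Tf, Lcn2, Lrp2, Meltf, Steap4 and Epas1 passed the count filter only through rEEOs. Flvcr2 and Cybrd1 passed it only through rBMSCs. The direction of these calls was thus largely fixed by the filter. The median log2 fold change was 0.36, beside 0.08 for all genes tested.

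Heme synthesis had 8 genes tested, with 5 higher and 1 lower by the adjusted p (33.3% and 30.2% of all genes) and a median log2 fold change of 0.81. Alas1, the rate-limiting first enzyme outside red cells, was called higher. It was at 16.22, 15.93 and 16.70 TPM in rBMSCs and 122.20, 153.63 and 136.58 TPM in rEEOs (log2 fold change 3.37, SE 0.25, edgeR adjusted p = 7.08e-05). In TPM its rEEOs libraries lay close together, unlike those of Hmox1. On CPM, Alas1 was 1.82 and 1.53 times higher in replicates 2 and 3 than in replicate 1. Its SD of log2 CPM in rEEOs was 0.44, against 1.24 for Hmox1 and a median of 0.340 for all genes. Alad, the enzyme after it, rose by 1.83, and Urod, Cpox and Ppox rose by 0.86, 0.75 and 1.23, with Ppox past the threshold in the fits without 1 rEEOs library but not without 1 rBMSCs library (edgeR adjusted p up to 0.0629). Fech, ferrochelatase, which inserts iron in the last step, fell by 0.83 on the log2 scale (SE 0.13, edgeR adjusted p = 0.00204). So the first enzyme of the pathway was higher and the last lower.

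Heme transport and scavenging had 13 genes tested, with 2 called higher and 3 lower (16.3% and 13.3% of all genes) and a median of -0.08. Flvcr1, a heme exporter, fell by 2.16 on the log2 scale, and its relative Flvcr2 fell by 4.11, from 2.76 to 3.46 TPM in rBMSCs to 0.13 to 0.20 TPM in rEEOs. Lrp1, the receptor that clears hemopexin-bound heme among many other ligands, fell from 207.90, 160.48 and 212.42 TPM to 3.76, 1.72 and 2.47 TPM. Abcg2, an exporter of porphyrins and drugs, was at 108.99, 54.38 and 70.44 TPM in rEEOs and at no more than 0.24 TPM in rBMSCs. Haptoglobin, Hp, which binds free hemoglobin, was at 25.95, 21.43 and 26.38 TPM in rEEOs against 0.40 to 1.10 TPM.

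Iron uptake, storage and release had 15 genes tested beside the members, with 7 called higher and 1 lower (16.3% and 13.3% of all genes). Of those called, Tf, Lcn2, Lrp2, Meltf and Steap4 passed the count filter only through rEEOs, and Cybrd1 only through rBMSCs. The median log2 fold change was 1.93 over all 15 genes, those that passed through 1 cell type included. Setting the genes at 3 counts or fewer to that limit could not move it, as each stayed at 5.69 or more. Lcn2, lipocalin-2, which binds iron-loaded siderophores and is an epithelial defence protein, was at 6761, 15064 and 9694 TPM in rEEOs and had 1 count over the 3 rBMSCs libraries. Meltf, melanotransferrin, was at 28.99, 16.41 and 12.12 TPM in rEEOs and at 0 in rBMSCs, at least 309-fold higher against 3 counts per library. Steap4, a metalloreductase, was at 3.31, 4.50 and 4.65 TPM and at 0 in rBMSCs, at least 51.5-fold higher. Lrp2, megalin, which takes up lipocalin and many other proteins, was at 19.19, 14.24 and 48.26 TPM against 0.05 TPM. The gene called lower was Cybrd1, an iron reductase of the gut surface, at 13.36 to 16.07 TPM in rBMSCs and at most 0.12 TPM in rEEOs. Without rEEOs replicate 1, 2 genes of this list were called lower.

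Tf, transferrin itself, was singled out after its values were seen. It was at 92.68, 1.69 and 6.91 TPM in rEEOs and at most 0.10 TPM in rBMSCs, and was called higher (edgeR adjusted p = 0.00684), also with each library left out in turn (up to 0.0318). Replicate 1 thus had the highest level of transferrin as well as of its receptor. Ncoa4, the receptor that hands ferritin to autophagy, did not pass the test, with 79.78, 27.60 and 39.38 TPM in rEEOs and 44.43 to 48.52 TPM in rBMSCs.

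Iron regulation had 7 genes tested, with 2 called higher (16.3% of all genes), 3 lower by the adjusted p alone (30.2%) and a median of -0.13. Hfe, which binds the transferrin receptor, was at 11.93, 19.11 and 10.69 TPM in rEEOs against 0.76 to 1.61 TPM in rBMSCs (log2 fold change 3.82, SE 0.46, edgeR adjusted p = 0.000555). Epas1, a hypoxia-inducible factor, was at 7.21, 1.55 and 2.62 TPM against 0.19 to 0.40 TPM. Of the iron regulatory proteins, Aco1 did not pass the test (log2 fold change -0.13) except without rEEOs replicate 1 (edgeR adjusted p = 0.0366), and Ireb2 fell by 0.53 (edgeR adjusted p = 0.041), no longer past the threshold when any 1 library other than rEEOs replicate 1 was left out (adjusted p up to 0.128). Bmp6 and Neo1, of the hepcidin pathway, fell by 1.80 and 1.70. Of 8 iron-sulfur cluster assembly genes, Iscu, the scaffold, was the 1 past the test (30.2% of all genes were lower). Iscu fell by 0.67 (edgeR adjusted p = 0.0132, but 0.056 without rBMSCs replicate 2). Without that library Nfs1 was instead called higher, with a log2 fold change of 4.02 against -1.40 with all libraries. Its expected counts in rBMSCs replicates 1 to 3 were 0, 278.76 and 3.55. Without rEEOs replicate 1, 2 genes of this list were higher by the adjusted p.

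The oxidative stress list, to whose regulators Hmox1 responds, had 12 genes tested, with 8 higher and 3 lower by the adjusted p (33.3% and 30.2% of all genes) and a median of 0.65. The 8 became 4 when any 1 rBMSCs library was left out, as Nfe2l2, Mafg, Txnrd1 and Slc7a11 no longer passed. Gclm, the modifier subunit of glutathione synthesis, was at 183.55, 417.41 and 222.41 TPM in rEEOs against 25.18 to 30.43 TPM in rBMSCs (log2 fold change 3.67, SE 0.46, edgeR adjusted p = 0.000679). Osgin1 and the small Maf protein Maff were also called higher, with log2 fold changes of 2.63 and 2.07, though Maff fell under the size needed for a call without rEEOs replicate 2 or 3 (down to 1.80). Nfe2l2, the transcription factor of this response, rose by 0.39 (edgeR adjusted p = 0.0252, but up to 0.125 without 1 rBMSCs library). The 3 genes of this list that fell included known targets of that factor. Nqo1, a quinone reductase, was at 412.92, 424.71 and 417.12 TPM in rBMSCs and 139.24, 163.61 and 165.87 TPM in rEEOs and fell by 1.13, and Gclc, the catalytic partner of Gclm, and Me1 fell by 0.76 and 1.19. Gclc was no longer past the threshold without any 1 rBMSCs library or without rEEOs replicate 3 (edgeR adjusted p up to 0.0692).

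**Figure D5:**
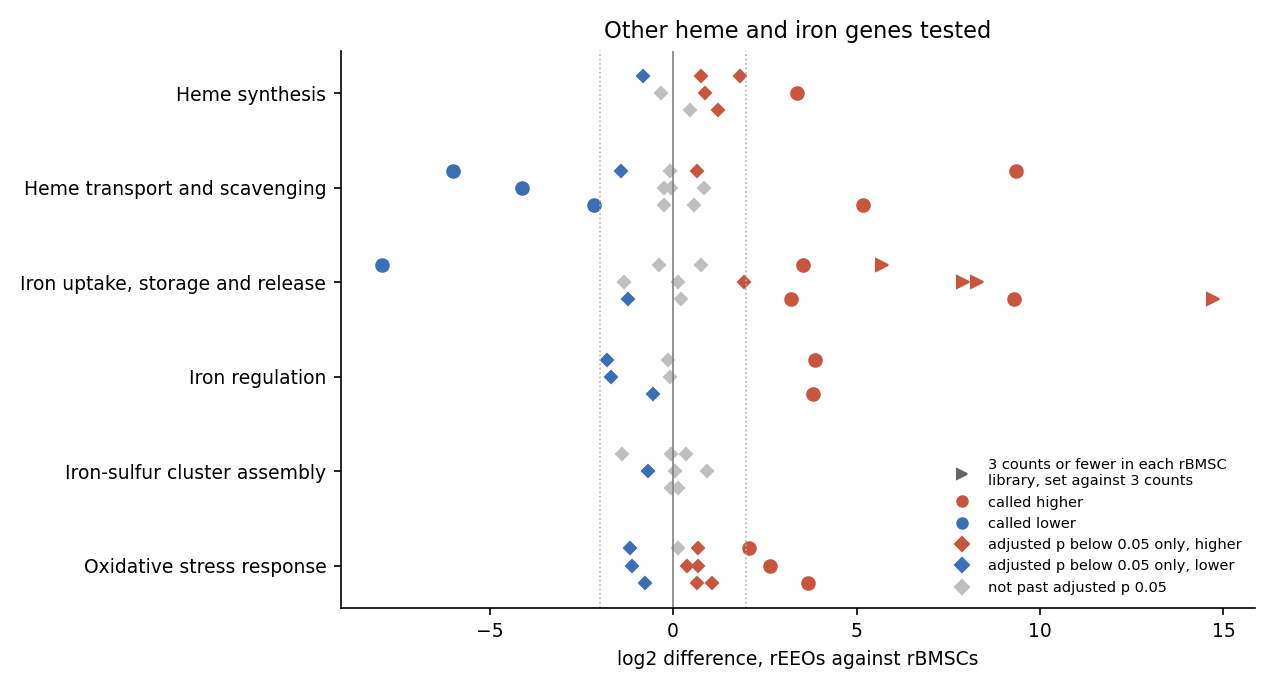
Log2 difference between rEEOs and rBMSCs (x axis, dotted lines at -2 and 2) for the tested genes of 6 lists (rows), with circles for called genes, diamonds for the rest and triangles for genes with 3 counts or fewer in each rBMSCs library, set against 3 counts. Red and blue mark an adjusted p below 0.05, higher and lower. The iron uptake, storage and release row has the most genes tested, 15, and the most called, 7 higher and 1 lower. Of all genes tested, 16.3% were called higher and 13.3% lower. Most genes called in that row passed the count filter through 1 cell type only.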

How the data were processed

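Bulk mRNA of 3 rEEOs and 3 rBMSCs samples was sequenced and analysed from the deposited gene tables. Per the submitters' processing notes, reads were trimmed with Trim Galore and aligned with Bowtie2 2.2.5 to Rnor_6.0. The authors estimated expected counts per gene with RSEM, together with TPM and FPKM, and 7.31 to 8.44% of the deposited expected counts were not whole. Relative transcript lengths were taken here from the deposited expected counts and TPM, and FPKM was not used for them. The copy of the tables analysed here held 13728 genes, with 81.3 to 82.7% of the TPM total, and Hmox2, Fth1 and Steap3 were not analysed here. No sequence or coordinate was used.

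Expected counts were rounded and tested with edgeR 4.0.16 (TMM, glmQLFit and glmQLFTest) after a filter for 10 or more counts in 3 or more libraries, in R 4.3.3, with Benjamini-Hochberg adjustment over 10607 genes. A gene was called at an adjusted p below 0.05 and an absolute log2 fold change above 2. The SE is the log2 fold change divided by the square root of F. In CPM, 3 counts stand for 0.181 to 0.262 by library, a limit for counting error only. Alternatives used DESeq2 1.42.0, limma 3.58.1 on log2(TPM + 1) and log2(TPM + 0.1), other filters and scalings, a replicate block, and each library left out. Removal of a lowess length trend (span 0.3) from each library was chosen after the data were seen. Scripts were tested on simulated data.

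Replicate pairs of each cell type were compared to look for a library deposited under more than 1 name. All differed by more than counting noise (chi-square per degree of freedom 4.94 to 18.8 in rBMSCs and 120 to 505 in rEEOs) and all were kept. This does not show that they were separate cultures or RNA preparations. The members and lists were chosen with earlier results of these data known. Named were all members, up to 4 called genes per list with the largest fold change and at least 10 CPM, the genes behind any count of 5 or fewer, the 8 genes nearest to Hmox1, and the markers. Steap1 and Slc25a37 were also named, as called genes of their list with over 10 counts in every library.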

Additional observations from a re-analysis of the deposited data

How the results depend on the processing

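Over 14 alternatives, Hmox1 and Blvrb passed the adjusted p in 14, Blvra in 13, Tfrc and Slc11a2 in 12, and Ftl1 in 1. The log2 fold change of Hmox1 ran from 2.77 to 3.79, with adjusted p up to 0.0162. No direction reversed. The 2 members called higher became 1 with limma on log2(TPM + 1) or log2(TPM + 0.1) and 4 with a log2 fold change above 1, and ran from 1 to 3 as each library was left out, with 1 without rEEOs replicate 1. Members past the adjusted p fell from 4 to 2 higher under both limma fits, and from 1 to 0 lower with library size only. List genes called lower, 4 in the main test, were 2 with limma on log2(TPM + 1) and 10 with an absolute log2 fold change above 1. Members with the replicate order of Hmox1, itself included, fell from 2 to 1 in TPM. The Blvrb to Blvra ratio in rEEOs was 3.51 on CPM, not per length. The median log2 fold change of all genes was 0.08, but -0.22 and -0.24 with limma on TPM. The cause of these changes was not tested.

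The replicate numbers did not pair the samples: deviations of same-numbered libraries correlated at 0.170, 0.193 and -0.175. With the replicate block, the members called higher were 1 in place of 2, as Tfrc had a log2 fold change of 1.87, and Hmox1 had 3.06. The shares of Hmox1 over Hmox2 and of Fth1 over Ftl1 were not run. Of the 7 members, Slc40a1, with 16.89 counts at most, was the 1 that depth kept from a test. Depth also limits list genes, 63 of 68 of which could be tested, and those given as bounds against 3 counts.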
